A study of Mus musculus with 16 samples.

Results

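Tubulins are the proteins from which microtubules are built. Described here are 10 mouse tubulin genes, 4 that encode alpha-tubulins (Tuba1a, Tuba1b, Tuba1c and Tuba4a) and 6 that encode beta-tubulins (Tubb2a, Tubb2b, Tubb3, Tubb4b, Tubb5 and Tubb6). They were taken by symbol from a table of 32697 genes, and all 10 were found. They were selected on their measured levels and their changes over the 4 groups and between the sets described below, so their own fold changes are given as a description. RNA was sequenced in 16 libraries made from cells that the series calls cDC1s, the dendritic cells that cross-present antigen to CD8 T cells, sorted from YUMM1.7 tumours. YUMM1.7 is a mouse melanoma line. The growth notes give female mice and tumours of 200 to 350 mm3, and they name only the Ikbkb mice.

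The genotype labels gave 4 groups of 4 libraries. Libraries labelled IRF1deltaXCR1 (called Irf1-deleted here) stood beside libraries labelled IRF1FF (Irf1 floxed), and libraries labelled IKKbdeltaXCR1 (Ikbkb-deleted) beside libraries labelled IKKbFF (Ikbkb floxed). Irf1 encodes an interferon-induced transcription factor, and the product of Ikbkb, IKK-beta, is a kinase that switches on NF-kB. Both deletion labels carry the name of XCR1, the chemokine receptor found on cDC1s, and they give no Cre line. Each deletion is thus meant for cells that express XCR1, and other cells caught in a sort are not named as deleted. The labels name no drug or other agent for any group. The 8 libraries of the Irf1 genotypes are called the Irf1 set and the 8 of the Ikbkb genotypes the Ikbkb set. The set cannot be told apart from the gene that was targeted, nor from any difference in how or when its mice were kept and sorted. Whether libraries of a group came from separate animals was not stated, so every error and p-value covers the spread between these libraries, which may be technical.

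The libraries held between 16478671 and 27433818 counts. Irf1 ranged from 98.6 to 299 CPM in the libraries labelled Irf1-deleted and from 141 to 268 CPM in the Irf1 floxed libraries (CPM, counts scaled to the library total with TMM factors), so replicate 1 labelled Irf1-deleted exceeded every Irf1 floxed library. These libraries are therefore named by their label throughout. The log2 fold change of Irf1 was -0.26 (SE 0.40), and that of Ikbkb in its own set was -0.79 (SE 0.33). Neither passed an adjusted p of 0.05 (edgeR adjusted p = 1 for Irf1 and 0.988 for Ikbkb). The cDC1 markers Xcr1 and Clec9a were found in all 16 libraries, at 12.1 to 318 CPM and 0.603 to 67.6 CPM. RNA of other cells was present in all libraries as well. Macrophage and monocyte markers summed to between 3753 and 17525 CPM, and 12 cDC1 markers to between 773 and 8565 CPM. Spp1 alone, of the former list, had 2264 to 7702 CPM. Of neuronal genes, given because Tubb3 is used as a neuronal marker, Rbfox3, Snap25, Syt1 and Elavl4 stayed at or below 1.40 CPM, each at 0 in 13 or 14 libraries, whereas the neurofilament gene Nefl reached 52.4 CPM.

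Microtubules grow and shrink by adding or losing dimers of an alpha- and a beta-tubulin. The genes of a family encode nearly identical proteins, called isotypes, which differ in where they are used. In dendritic cells microtubules carry endosomes and antigen vesicles and serve migration and the contact with T cells. Cells also hold the amount of tubulin mRNA in check by autoregulation. When free dimers accumulate, the factor TTC5 binds the newly made N-terminus of alpha- or beta-tubulin on the ribosome, and the mRNA being translated is degraded.

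The coding starts encode the N-terminus that this mechanism reads, and they show how near to each other the genes are. The first 30 bases of the coding sequence are given 5′ to 3′ with the first 4 codons in capitals, from the GENCODE M21 annotation of GRCm38, for 9 of the genes.
Tuba1a: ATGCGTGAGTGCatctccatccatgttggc
Tuba1b: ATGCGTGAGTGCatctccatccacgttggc
Tuba1c: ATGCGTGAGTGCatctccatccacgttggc
Tuba4a: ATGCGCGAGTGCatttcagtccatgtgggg
Tubb2a: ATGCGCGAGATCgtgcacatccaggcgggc
Tubb2b: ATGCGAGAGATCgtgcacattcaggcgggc
Tubb3: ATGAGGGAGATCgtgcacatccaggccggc
Tubb4b: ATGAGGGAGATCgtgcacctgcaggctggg
Tubb5: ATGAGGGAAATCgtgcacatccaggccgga
Tuba1a, Tuba1b and Tuba1c carried the same 4 codons, and Tuba1b and Tuba1c were identical over all 30 bases shown. Tubb3 and Tubb4b also shared their 4 codons. Within these 4 codons the differences inside a family were silent, which was not so for all later codons shown. All 4 alpha starts encode Met-Arg-Glu-Cys, and all beta starts shown encode Met-Arg-Glu-Ile.

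In mm10, the coordinates of which are those of GRCm38, Tuba1a lies at chr15:98949837-98953703 and Tuba1b at chr15:98931425-98934565, both on the minus strand. Tuba1c lies near them on the plus strand, at chr15:99029891-99038110. Tuba4a is at chr1:75214228-75219865, Tubb4b at chr2:25222160-25224702, Tubb2b at chr13:34126748-34130466 and Tubb5 at chr17:35833921-35838306, all on the minus strand. Tubb3 is at chr8:123411424-123422015 on the plus strand. Tubb2a is at chr13:34074274-34078007 on the minus strand, and Tubb6 is on chromosome 18. Counts were made over genes, so every value below covers the exons of the whole gene.

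Likeness of sequence limits how well a read can be assigned. Of all 50-base windows in the exons of Tuba1a, 72.9% were also present in another gene, and the share was 66.7% for Tuba1b and 52.7% for Tuba1c. Tuba1b shared 53.6% of its windows with Tuba1c alone. Tubb2a had 49.6% of its windows elsewhere, Tubb4b 37.8% and Tubb2b 36.9%. For Tubb4b the main partner was the processed pseudogene Tubb4b-ps1, with 32.4%. Levels of these 6 genes are therefore uncertain, because reads from shared stretches may have been dropped or credited to a relative. Tuba4a (0.807%), Tubb5 (0.0892%), Tubb3 and Tubb6 (none for either) were almost free of such windows. Tuba4a overlaps Stk16, a kinase gene on the opposite strand, and without a stated strand setting their reads could not be told apart. The read-through genes Gm49450, over Tuba1a and Tuba1b, and Gm20388, over Tubb3, were not analysed here.

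To compare genes with each other, counts were divided by exon length and scaled to a common total per library (TPM, the usual per-length unit). Tubb5 (the common beta isotype of dividing cells), Tuba1a (best known as the alpha isotype of the developing brain) and Tubb6 (a beta isotype of non-neuronal tissue) were the 3 most abundant, and their order differed between the sets. In the Irf1 set Tubb5 averaged 1161 ± 262 TPM, Tubb6 1082 ± 375 TPM and Tuba1a 663 ± 131 TPM, and in the Ikbkb set Tuba1a averaged 1382 ± 244 TPM, Tubb5 995 ± 179 TPM and Tubb6 888 ± 143 TPM (SD, n = 8 each). Tubb5 was above Tuba1a in 8 of 8 libraries of the Irf1 set and in 0 of 8 of the Ikbkb set. Over all 16 libraries the means were 1078 ± 233 TPM for Tubb5, 1023 ± 417 TPM for Tuba1a and 985 ± 292 TPM for Tubb6 (SD). With the longest transcript as the length, Tubb6 (1035 TPM) was above Tubb5 (1027 TPM) and Tuba1a had 777 TPM.

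Below them, Tubb4b (446 ± 114 TPM), Tuba1b (380 ± 76.8 TPM) and Tuba1c (315 ± 102 TPM) formed a middle tier. Of these 3 broadly expressed isotypes, neighbours in the order did not differ beyond the larger SD. Tubb6 was above Tubb4b in 16 of 16 libraries. Tubb2a followed at 179 ± 40.1 TPM, and was higher than Tuba4a (64.3 ± 30.1 TPM) in every library. Tuba4a, an alpha isotype abundant in muscle, platelets and brain, and Tubb3 (34.6 ± 25.6 TPM), the isotype used as a neuronal marker, did not differ beyond their SD. Tubb2b was last, at 8.35 ± 2.80 TPM. The 10 genes together took 0.362% ± 0.0842 of counts in the libraries labelled Irf1-deleted and 0.287% ± 0.0481 in the Irf1 floxed libraries, against 0.426% ± 0.0430 in the Ikbkb-deleted and 0.396% ± 0.0586 in the Ikbkb floxed libraries (SD, n = 4 each).

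**Figure D1:**
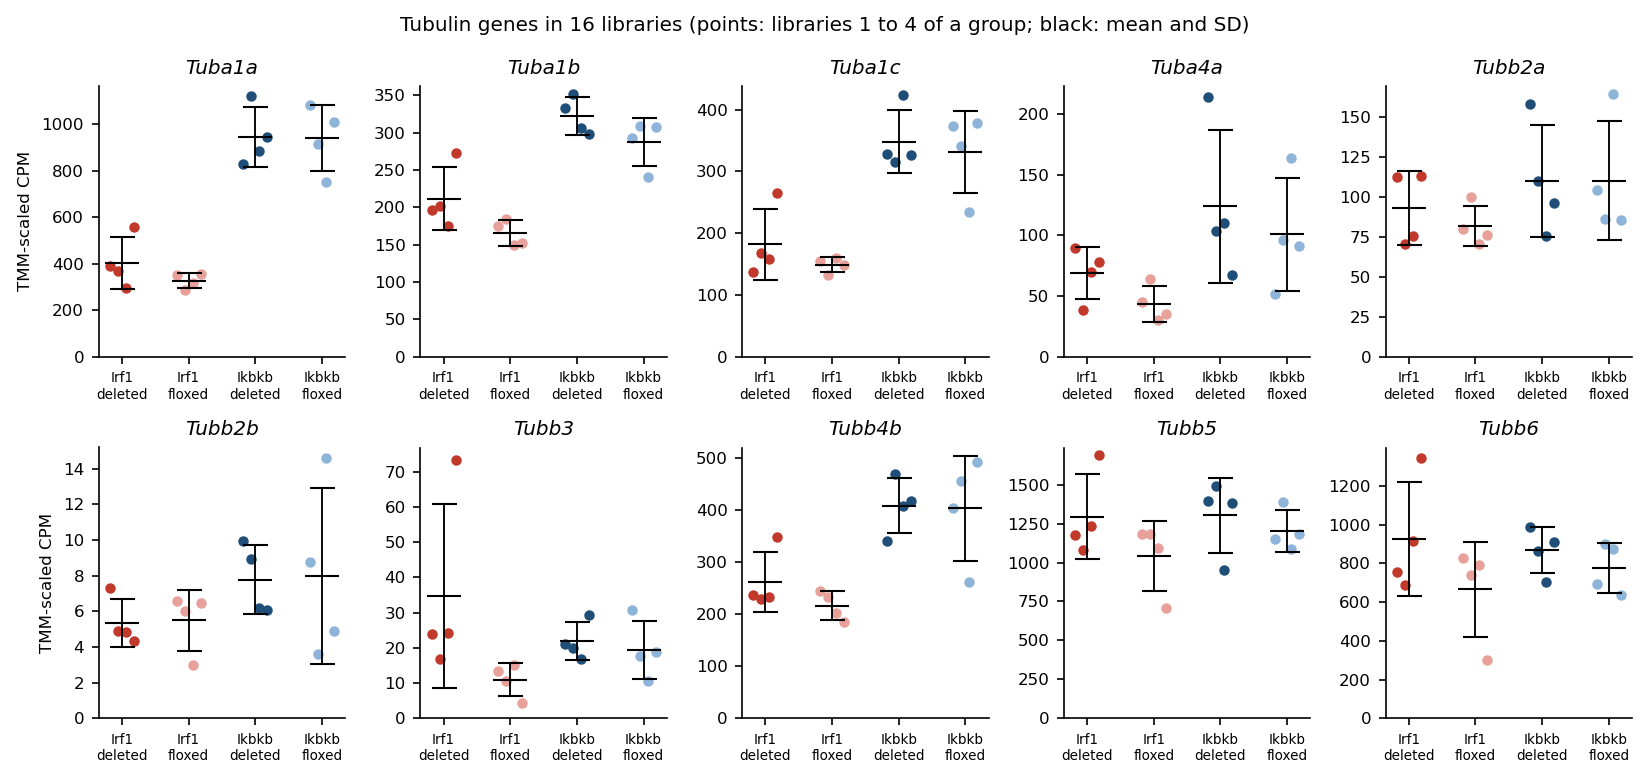
TMM-scaled CPM of each tubulin gene (vertical axis from 0) in the 4 libraries of each group, with the mean and SD in black. Tuba1a shows 2 separate levels, 286 to 559 CPM in the Irf1 set and 753 to 1122 CPM in the Ikbkb set, and Tubb3 and Tubb6 have 1 library far from the others in an Irf1 group.

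The alpha-tubulin genes were lower in the Irf1 set than in the Ikbkb set, and of the 6 beta-tubulin genes Tubb4b was called lower too. Tuba1a had 390, 367, 296 and 559 CPM in the libraries labelled Irf1-deleted and 352, 286, 318 and 355 CPM in the Irf1 floxed libraries. It had 828, 1122, 884 and 944 CPM in the Ikbkb-deleted libraries and 1081, 914, 753 and 1008 CPM in the Ikbkb floxed libraries. No library of the Irf1 set reached the lowest of the Ikbkb set. The means were 365 ± 85.9 and 942 ± 125 CPM in the Irf1 and the Ikbkb set (SD, n = 8 each), and the level was 0.386-fold that of the Ikbkb set (log2 fold change -1.37, SE 0.13). Over all genes tested, 2.26% were lower without overlap.

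Tuba1b, a widely expressed alpha isotype, had 196, 202, 175 and 272 CPM in the libraries labelled Irf1-deleted and 176, 185, 149 and 152 CPM in the Irf1 floxed libraries. In the Ikbkb-deleted libraries it had 333, 352, 306 and 297 CPM, and in the Ikbkb floxed libraries 292, 309, 241 and 307 CPM. The sets overlapped only through replicate 4 labelled Irf1-deleted and replicate 3 of the Ikbkb floxed libraries, and the log2 fold change between sets was -0.70 (SE 0.11). Tuba1c had 137, 168, 158 and 266 CPM in the libraries labelled Irf1-deleted and 154, 133, 161 and 149 CPM in the Irf1 floxed libraries. Its values were 328, 315, 423 and 327 CPM in the Ikbkb-deleted and 374, 340.5, 235 and 378 CPM in the Ikbkb floxed libraries. The same 2 libraries gave the overlap, and the log2 fold change was -1.04 (SE 0.15).

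Tuba4a varied most among the alpha genes. It measured 89.4, 39.0, 70.1 and 78.2 CPM in the libraries labelled Irf1-deleted and 44.9, 63.8, 30.4 and 35.4 CPM in the Irf1 floxed libraries, against 214, 103, 111 and 67.6 CPM in the Ikbkb-deleted and 52.1, 96.5, 164 and 91.1 CPM in the Ikbkb floxed libraries. The sets overlapped in the range from 52.1 to 89.4 CPM, and the log2 fold change was -1.03 (SE 0.27). Its 2 highest libraries, Ikbkb-deleted replicate 1 and Ikbkb floxed replicate 3, were also the 2 highest in cDC1 markers. Without those 2 libraries the log2 fold change was -0.65. Stk16, which overlaps Tuba4a, had a log2 fold change of -0.41 (SE 0.16).

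Among the beta genes, Tubb4b, an isotype used in cilia and in many other cells, was the one with a clear set difference. It had 237, 230, 232 and 347 CPM in the libraries labelled Irf1-deleted and 245, 233, 203 and 185 CPM in the Irf1 floxed libraries. In the Ikbkb-deleted libraries it had 341, 469, 407 and 417 CPM, and in the Ikbkb floxed libraries 404, 456, 263 and 491 CPM. Replicate 4 labelled Irf1-deleted reached into the Ikbkb range, and the log2 fold change was -0.77 (SE 0.14). Its pseudogene Tubb4b-ps1, at 1.05 ± 0.359 CPM in the Irf1 set and 1.87 ± 0.397 CPM in the Ikbkb set (SD, n = 8 each), had a log2 fold change of -0.81 (SE 0.37).

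Tubb5 had 1176, 1079.9, 1232 and 1689 CPM in the libraries labelled Irf1-deleted and 1182, 1186, 1090.4 and 711 CPM in the Irf1 floxed libraries. It had 1392, 1490.0, 951 and 1379 CPM in the Ikbkb-deleted and 1151, 1392, 1086 and 1184 CPM in the Ikbkb floxed libraries. The sets overlapped over most of their range, with a log2 fold change of -0.11 (SE 0.14). Tubb6 ranged from 301 to 1347 CPM in the Irf1 set and from 638 to 991 CPM in the Ikbkb set (log2 fold change -0.06, SE 0.20). Tubb2a, a beta isotype abundant in neurons, ranged from 70.6 to 113 CPM in the Irf1 set and from 75.7 to 165 CPM in the Ikbkb set (-0.34, SE 0.18). Tubb2b, a close relative of Tubb2a, ranged from 2.97 to 7.33 CPM in the Irf1 set and from 3.60 to 14.6 CPM in the Ikbkb set (-0.54, SE 0.31).

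**Figure D2:**
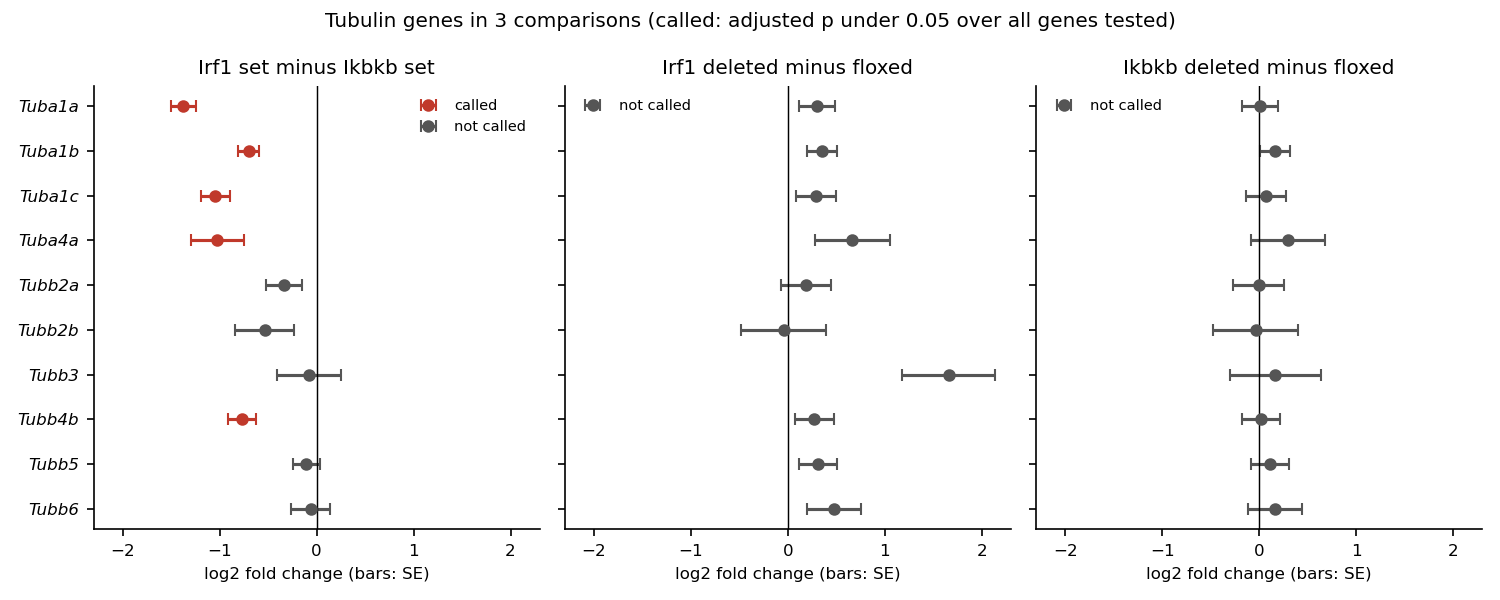
Log2 fold change (horizontal axis) with its SE for each tubulin gene in 3 comparisons, red where the adjusted p over all genes tested was under 0.05. The 5 red points, Tuba1a, Tuba1b, Tuba1c, Tuba4a and Tubb4b, lie between -1.37 and -0.70 in the comparison of sets, and no point is red for either deletion.

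In the fit across all 16040 genes tested, 5 of the 10 tubulin genes were called lower in the Irf1 set (Tuba1a, Tuba1b, Tuba1c, Tuba4a and Tubb4b) and none higher. All 10 had passed the filter on low counts. Over all genes, 28% were called between the sets, 15% higher and 13% lower, and the comparison was one of those from which the genes were picked. The median log2 fold change was -0.62 over the 10 tubulin genes and 0.01 over all genes. Between the floxed groups alone 4 of the 10 were called lower, against 5.84% of all genes, and Tuba4a was not among them (log2 fold change -1.21, SE 0.39). Between the deleted groups alone Tuba1a, Tuba1b and Tuba1c were called lower, against 3.54% of all genes, and Tuba4a and Tubb4b were not. The same 3 genes did not overlap there, as was so for 8.86% of all genes in that direction. Among floxed libraries alone, Tuba1a, Tuba1b, Tuba1c and Tubb4b did not overlap, as was so for 7.16% of all genes in that direction. Tubb3 had opposite signs in the separate comparisons, -0.82 (SE 0.47) between the floxed groups and 0.66 (SE 0.47) between the deleted groups, neither called.

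**Figure D3:**
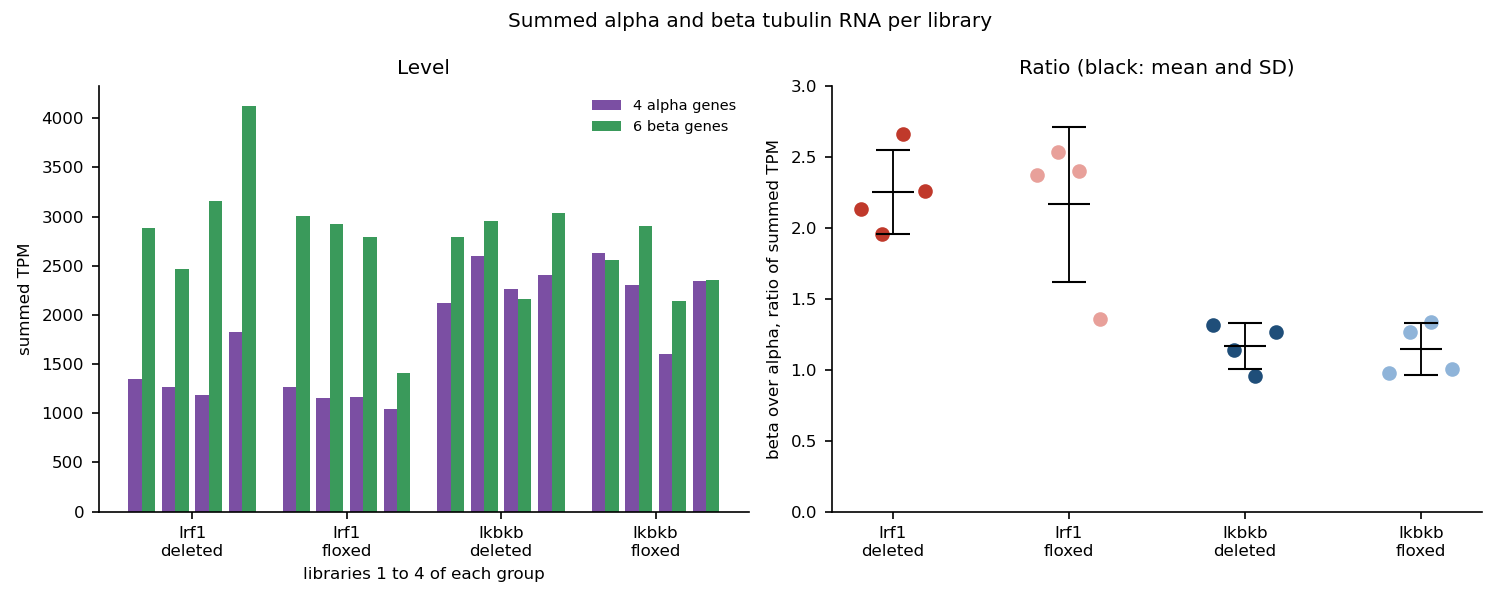
Left, TPM summed over the 4 alpha and the 6 beta genes (vertical axis from 0) in each library. Right, their ratio, with mean and SD in black, which ran from 1.36 to 2.66 in the Irf1 set and from 0.955 to 1.34 in the Ikbkb set.

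The balance of the families differed accordingly. Alpha genes summed to 1281 ± 238 TPM in the Irf1 set and 2283 ± 322 TPM in the Ikbkb set, and beta genes to 2847 ± 752 and 2615 ± 361 TPM in the Irf1 and the Ikbkb set (SD, n = 8 each). The ratio of beta to alpha was 2.25 ± 0.298 in the libraries labelled Irf1-deleted and 2.166 ± 0.544 in the Irf1 floxed libraries, against 1.17 ± 0.160 in the Ikbkb-deleted and 1.15 ± 0.182 in the Ikbkb floxed libraries (SD, n = 4 each). The sets did not overlap in this ratio, although Irf1 floxed replicate 4, at 1.36, was just above the highest Ikbkb library, at 1.34. That library had the lowest beta sum of all 16, 1411 TPM, and the plot of summed levels by library shows it apart from the others. Within the alpha family Tuba1a made up 51.7% ± 2.84 of the TPM in the Irf1 set and 60.3% ± 3.31 in the Ikbkb set, and Tuba1b 25.8% ± 2.13 and 18.8% ± 1.28 (SD, n = 8 each, in the same order). Tubb4b made up 13.7% ± 2.10 of the beta family in the Irf1 set and 19.8% ± 4.06 in the Ikbkb set. Over all genes tested, the median log2 fold change between sets varied with the share of 50-base windows found elsewhere. It was 0.06 for genes with none, -0.28 from 20 to 50% (with Tubb4b) and -0.34 above 50% (with Tuba1a, Tuba1b and Tuba1c). Of these bins 12.2%, 14.3% and 12.0% were called lower, in the same order. The part of shared windows in the ratio and in the tubulin differences was not tested.

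The sets also differed in how the change depended on transcript length, and tubulin transcripts are short. Over all genes tested, the median log2 fold change between sets was -0.47 for transcripts up to 1000 bases, -0.26 from 1000 to 2000 bases, -0.08 from 2000 to 3000 bases and 0.68 above 6000 bases. In the range from 1000 to 2000 bases lay 7 of the 10 tubulin genes, and 3 lay between 2000 and 3000 bases. A fit with offsets for transcript length, chosen after the trend was seen, called the same 5 genes lower. There the log2 fold change was -1.19 (SE 0.12) for Tuba1a, -0.52 (SE 0.10) for Tuba1b, -0.86 (SE 0.13) for Tuba1c, -1.01 (SE 0.27) for Tuba4a and -0.54 (SE 0.13) for Tubb4b. Tubb3 and Tubb6 had values of 0.10 and 0.13 with the offsets and below 0 without them, neither called. Over all genes the offsets gave 1488 higher and 2057 lower calls, against 2407 higher and 2081 lower without them.

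**Figure D4:**
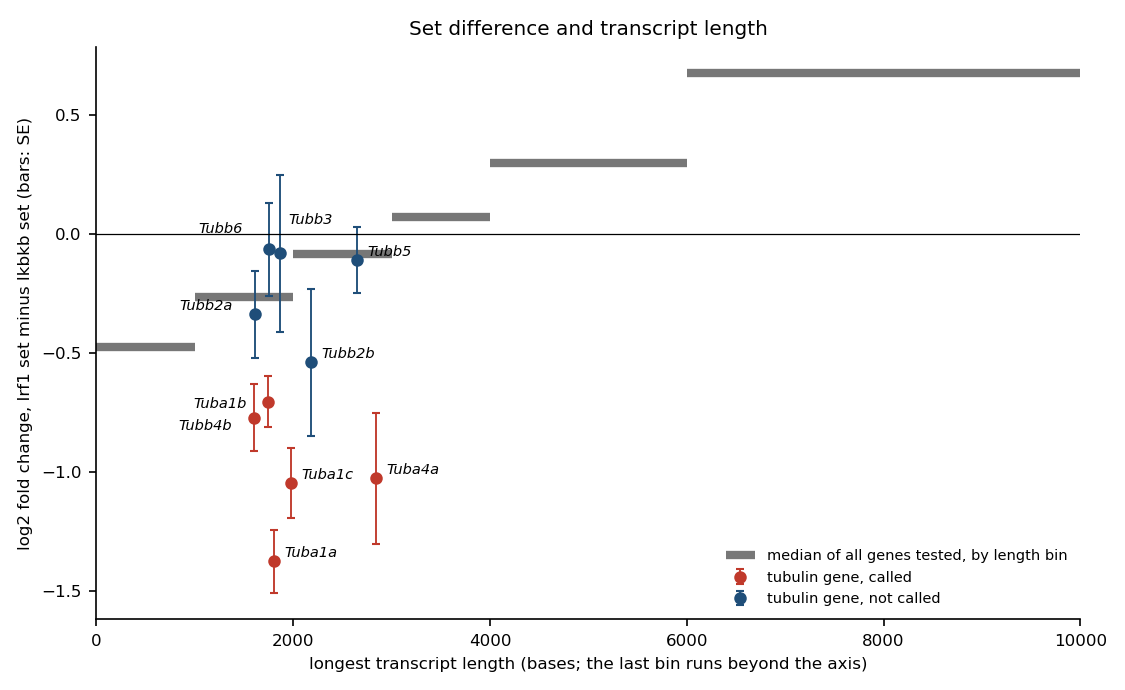
Log2 fold change of the Irf1 set against the Ikbkb set (vertical axis) by length of the longest transcript in bases (horizontal axis). Grey bars are medians of all genes tested in a length bin, running from -0.47 to 0.68, and points are the tubulin genes with their SE. The 5 called genes, in red, lie below the grey bar of their length.

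RNA of other cell types moved with the set. Counts of markers that rose or fell are of called genes, beside 15% higher and 13% lower over all genes. Fibroblast and endothelium markers summed to 11605 to 31414 CPM in the Irf1 set and 6374 to 12145 CPM in the Ikbkb set, and 11 of 14 rose. With the length offsets 9 were called higher, and their median log2 fold change was 0.80 against 1.26 without them. Tek, an endothelial receptor, was at 0 in 5 libraries. Skeletal muscle markers summed to 5.41 to 11.1 CPM in the Irf1 set and 20.997 to 734 CPM in the Ikbkb set, and 5 of 5 tested fell. T and NK cell markers summed to 57.1 to 658 CPM in the Irf1 set and 214 to 1677 CPM in the Ikbkb set, and 3 of 13 fell, of which 0 were called with the length offsets. Neutrophil markers summed to 381 to 952 CPM in the Irf1 set and 179 to 357 CPM in the Ikbkb set, without overlap, and 2 of 6 tested rose. Of 6 tested B cell markers 2 fell, with a median log2 fold change of -1.60. Of the 12 cDC1 markers 0 were called in edgeR, and 1 had an unadjusted p under 0.05, while 11 of 12 had a negative log2 fold change, with a median of -0.85. Their sums were 773 to 3702 CPM in the Irf1 set and 1015 to 8565 CPM in the Ikbkb set. The part of these markers in the tubulin values was not tested, and in bulk RNA a change in the number of cells of a type cannot be told apart from a change in RNA per cell.

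Genes that act on tubulin were read from the same fit, and they were not used to pick the 10 genes. New tubulin is folded by the chaperonin CCT, to which prefoldin delivers it, and cofactors TBCA to TBCE then join the dimers. Of 21 genes of this machinery, 12 were called lower in the Irf1 set and none higher, against 13% lower and 15% higher over all genes. Their median log2 fold change was -0.58 against 0.01 over all genes. The CCT subunit Cct5 averaged 917 ± 106 CPM in the libraries labelled Irf1-deleted and 735 ± 81.7 CPM in the Irf1 floxed libraries, against 1573 ± 179 CPM in the Ikbkb-deleted and 1480 ± 259 CPM in the Ikbkb floxed libraries (SD, n = 4 each). No library of the Irf1 set reached the lowest of the Ikbkb set (log2 fold change -0.89, SE 0.11, edgeR adjusted p = 0.000192). The subunits Tcp1 (-0.83, SE 0.11, adjusted p = 0.000268), Cct4 (-0.95, SE 0.14, adjusted p = 0.000388) and Cct6a (-0.92, SE 0.15, adjusted p = 0.000641) also fell. With length offsets 10 of 21 were called lower and 1 higher. The median transcript of this list, at 1855 bases, was about as long as that of the 10 tubulin genes, at 1836 bases. Without the offsets, 21.8% of all genes from 1000 to 2000 bases were called lower and 4.88% higher.

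Proteins that bind, cut or travel on microtubules went the other way. Of 24 genes for microtubule-associated and severing proteins, 13 were called higher in the Irf1 set and 1 lower. Of 16 motor genes 8 were called higher and 2 lower. Over all genes 15% were called higher and 13% lower. Ckap5, which speeds microtubule growth, averaged 95.5 ± 29.7 CPM in the libraries labelled Irf1-deleted and 104 ± 15.9 CPM in the Irf1 floxed libraries, against 36.0 ± 3.895 CPM in the Ikbkb-deleted and 37.7 ± 18.2 CPM in the Ikbkb floxed libraries (SD, n = 4 each). Its sets did not overlap (log2 fold change 1.43, SE 0.22, edgeR adjusted p = 0.000521). The microtubule-binding genes Map7d1 (1.36, SE 0.19) and Map4 (1.02, SE 0.16) and the spindle assembly factor Tpx2 (0.81, SE 0.15) rose too. Among motors, the kinesin heavy chain Kif5b (1.13, SE 0.16), the kinesin Kif3a (1.07, SE 0.17), the dynactin subunit Dctn1 (1.43, SE 0.24) and the dynein heavy chain Dync1h1 (1.57, SE 0.31) rose. Median transcripts in these lists were 4833 and 4671 bases long, in the range where all genes tended to be higher. Of all genes from 4000 to 6000 bases, 24.1% were called higher and 7.95% lower. With length offsets the counts were 7 higher and 2 lower for the binding and severing proteins, and 5 higher and 1 lower for the motors. Of the genes named here, only Dync1h1 was no longer called with the offsets (0.67, SE 0.24).

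The remaining lists of the pathway held few calls between sets, where 15% of all genes were called higher and 13% lower. Which genes were called depended on the length offsets. Of 18 tubulin-modifying enzymes 1 rose, the ligase Ttll7, at 2.01 ± 1.64 CPM in the libraries labelled Irf1-deleted and 4.28 ± 3.54 CPM in the Irf1 floxed libraries, against 0.0527 ± 0.0743 CPM in the Ikbkb-deleted and 2.92 ± 2.69 CPM in the Ikbkb floxed libraries (SD, n = 4 each). The Ikbkb floxed mean thus lay between those of both Irf1 groups. Between the floxed groups alone 0 of the 18 enzymes were called, and between the deleted groups alone 0 as well. Of 10 genes of the gamma-tubulin ring complex, which seeds microtubules, 0 were called in edgeR and 2 (Mzt1 and Nedd1) had an unadjusted p under 0.05. The 2 most abundant of this list, Tubgcp2 and Mzt1, had log2 fold changes of -0.03 (SE 0.14) and -0.43 (SE 0.19). Of 4 autoregulation genes, Scaper rose (0.94, SE 0.33, edgeR adjusted p = 0.0451), and Ttc5 itself had -0.37 (SE 0.15, not called). With length offsets neither Ttll7 (2.16, SE 0.99) nor Scaper (0.54, SE 0.30) was called. The offsets instead called the tubulin acetyltransferase gene Atat1 higher (0.69, SE 0.21) and the modifying-enzyme gene Agbl3 (-0.78, SE 0.24), the gamma-tubulin complex partner Nedd1 (-0.62, SE 0.19) and Cnot1 (-0.59, SE 0.19), of the deadenylase complex, lower. These 4 were named after their values were seen. Of 8 tested tubulin superfamily genes outside the 10, Tubb4a (3.82, SE 0.78) and Tuba8 (1.70, SE 0.61) rose. Both were rare. Of 22 cell cycle genes 2 rose, the proliferation marker Mki67 and the topoisomerase gene Top2a, and 5 fell, against those 15% and 13% of all genes. A negative log2 fold change was found for 15 of the 22, with a median of -0.24. With length offsets Top2a was not called (0.36, SE 0.13). The offsets called Mki67 and Plk1 higher and Tyms (-0.91), Mcm5 (-0.80), Cdk1 (-0.78) and Pcna (-0.33) lower. These offset calls were named after their values were seen. Tubb4a averaged 1.77 ± 1.23 CPM in the libraries labelled Irf1-deleted and 2.79 ± 1.22 CPM in the Irf1 floxed libraries, against 0.114 ± 0.125 CPM in the Ikbkb-deleted and 0.199 ± 0.255 CPM in the Ikbkb floxed libraries (SD, n = 4 each).

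Deletion of Irf1 was the second comparison, and Tubb3 had the largest difference among the tubulin genes. It had 24.0, 16.9, 24.3 and 73.4 CPM in the libraries labelled Irf1-deleted, against 13.6, 10.6, 15.2 and 4.44 CPM in the Irf1 floxed libraries. Every library labelled Irf1-deleted was above every floxed library, as was so for 1.26% of all genes. The log2 fold change was 1.66 (SE 0.48) and was not called. Replicate 4 was the highest library in the deleted group and the lowest in the floxed group. Without that deleted library the value was 0.99, without that floxed library 1.40 and without both 0.72. In the Ikbkb set Tubb3 had 21.2, 20.1, 16.7 and 29.4 CPM in the deleted and 30.7, 17.6, 10.7 and 18.7 CPM in the floxed libraries, which overlapped.

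The other tubulin genes had small differences in the libraries labelled Irf1-deleted. Of the 10 genes, 9 had a positive log2 fold change, with a median of 0.31 against -0.02 over all genes, and 0 were called. By transcript length, the median of all genes was 0.08 from 1000 to 2000 bases, 0.03 from 2000 to 3000 bases and -0.23 above 6000 bases. Over all genes 0% were called in edgeR, 419 genes (2.61%) had an unadjusted p under 0.05, among them 2 of the 10 tubulin genes (Tubb3 and Tuba1b), and DESeq2 called 6 genes and limma voom 0, none of them a tubulin gene. Tuba1b had a log2 fold change of 0.35 (SE 0.15), Tuba4a of 0.66 (SE 0.39) and Tubb6 of 0.48 (SE 0.28). Tubb6 had 758, 691, 915 and 1347 CPM in the libraries labelled Irf1-deleted, against 830.1, 742, 791 and 301 CPM in the Irf1 floxed libraries. The groups overlapped in all libraries but replicate 4 of each and replicate 3 labelled Irf1-deleted. Without both replicates 4, which were left out after their values were seen, the log2 fold change was 0.00182 for Tubb6 and 0.01 for Tubb5, against 0.48 and 0.31 with them.

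Those 2 libraries also stood apart in markers. Replicate 4 labelled Irf1-deleted had 6006 CPM of macrophage and monocyte markers and 4094 CPM of cell cycle genes, the lowest and the highest sum in the Irf1 set. Irf1 floxed replicate 4 had 17525 CPM of macrophage and monocyte markers and 2361 CPM of cell cycle genes, the highest and the lowest. Neuron and Schwann cell markers, the list nearest to Tubb3, summed to 88.0 CPM in replicate 4 labelled Irf1-deleted, the highest of all 16 libraries, and to 11.6 CPM in Irf1 floxed replicate 4, the lowest of the Irf1 set. Over whole lists in the comparison for Irf1, 13 of 13 macrophage and monocyte markers had a negative log2 fold change (median -0.49), as had 12 of 13 T and NK cell markers (median -1.03), and 18 of 22 cell cycle genes had a positive one (median 0.17). All 6 tested neuron and Schwann cell markers had a positive log2 fold change (median 0.64). Their list summed to 68.9 ± 13.6 CPM in the libraries labelled Irf1-deleted and 39.0 ± 22.4 CPM in the Irf1 floxed libraries (SD, n = 4 each). Of 5 tested keratinocyte markers 4 had an unadjusted p under 0.05, and their sum reached 769 CPM in replicate 3 labelled Irf1-deleted, against at most 4.25 CPM in the Irf1 floxed libraries. Of these lists 0 genes were called in edgeR, and outside the keratinocyte list 0 had an unadjusted p under 0.05. The part of these markers in the Irf1 values was not tested.

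In the libraries labelled Ikbkb-deleted the tubulin genes had log2 fold changes from -0.04 to 0.30 against the Ikbkb floxed libraries. Their SE ran from 0.15 to 0.47, so larger changes are not excluded. Ikbkb itself was not called lower in these libraries. Of the 10 genes, 8 had a positive log2 fold change, the median was 0.09 against -0.02 over all genes, and 0 were called. Over all genes 0% were called in edgeR, 769 (4.79%) had an unadjusted p under 0.05, with none of the 10 tubulin genes among them, and DESeq2 called 38 genes and limma voom 0, again none of them a tubulin gene. The value farthest from 0 was that of Tuba4a, 0.30 (SE 0.38), and leaving out 1 library at a time put it between -0.11 and 0.62. Tuba1a, with the largest difference between sets, had 0.01 (SE 0.19). No tubulin gene separated the Ikbkb-deleted from the Ikbkb floxed libraries, as 1.76% of all genes did in either direction. The difference between both deletions was 1.49 (SE 0.66) for Tubb3, and 0 tubulin genes were called, against 0% of all genes. In that comparison 455 genes (2.84%), Tubb3 among them, had an unadjusted p under 0.05 in edgeR, and DESeq2 called 12 genes and no tubulin gene. In the lists of chaperones, binding proteins, motors, enzymes and ring complex 0 genes were called for either deletion in edgeR. At an unadjusted p under 0.05 there were 0 for Irf1, and for Ikbkb 2 enzymes, 1 binding protein and 1 motor.

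**Figure D5:**
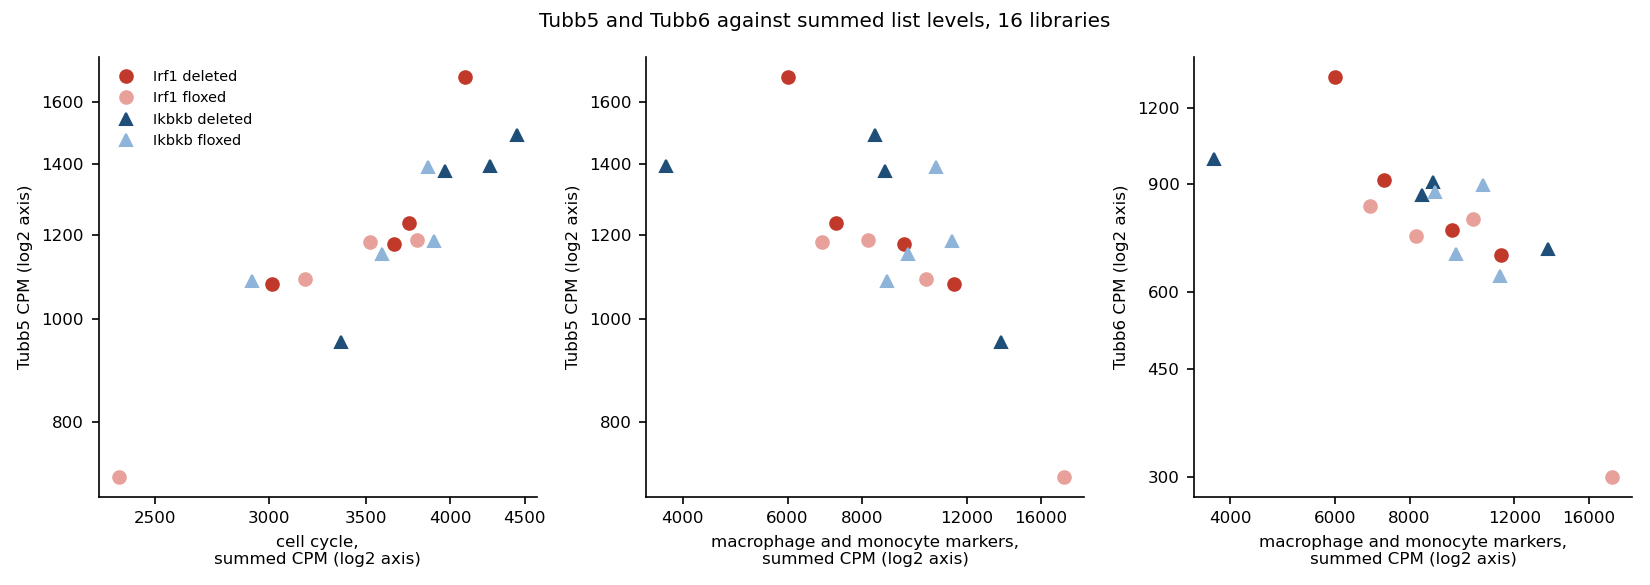
CPM of Tubb5 and Tubb6 (vertical axes, log2 scale) against the summed CPM of cell cycle genes or of macrophage and monocyte markers (horizontal axes, log2 scale) in 16 libraries, circles for the Irf1 set and triangles for the Ikbkb set. In the Irf1 set Tubb5 was higher where cell cycle genes were higher (r = 0.932) and lower where macrophage markers were higher (r = -0.924), with Irf1 floxed replicate 4 at the low end of each panel.

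Tubulin is in demand when cells divide, so each gene was set against summed levels of cell cycle genes and of 5 marker lists within each set of 8 libraries, 120 relations in all. The permutation took the 8 libraries of a set as exchangeable and pooled deleted with floxed libraries. A difference that goes with the genotype label is thus part of r and its p-value. In the Irf1 set Tubb5 was higher in libraries with more cell cycle RNA. The relation had r = 0.932 and rho = 0.952 (n = 8, exact two-sided permutation p = 0.000273 and 0.00114, adjusted p = 0.0179 and 0.0685), and r was 0.812 without the 2 libraries farthest from the median. In the Ikbkb set the same relation had r = 0.816 and rho = 0.905 (n = 8, exact two-sided permutation p = 0.0129 and 0.00456, adjusted p = 0.154 and 0.124), with r = 0.811 without the 2 farthest libraries. Only the first passed on r, and the difference between the sets was not tested.

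With macrophage and monocyte markers Tubb5 had r = -0.924 and rho = -0.929 in the Irf1 set (n = 8, exact two-sided permutation p = 0.000298 and 0.00223, adjusted p = 0.0179 and 0.0893). Tubb6 had r = -0.925 and rho = -0.881 (n = 8, exact two-sided permutation p = 0.000694 and 0.00724, adjusted p = 0.0278 and 0.124). Without the 2 farthest libraries r was -0.868 for Tubb5 and -0.763 for Tubb6. Most of the macrophage and monocyte sum was RNA of Spp1 and Apoe. In the libraries labelled Irf1-deleted these averaged 5131 and 1480 CPM, of a mean sum of 8521 CPM. In the Irf1 floxed libraries they averaged 5567 and 2137 CPM, of 10710 CPM. The part of the single markers in these relations was not tested. These 3 relations were those called on r, and none was called on rho. Without replicate 2 or 4 labelled Irf1-deleted, or without Irf1 floxed replicate 4, no relation was called, so the calls rest on single libraries. In the Ikbkb set Tubb2a had r = 0.940 with cDC1 markers (n = 8, adjusted exact permutation p = 0.0779), which was 0.590 without the 2 farthest libraries, Ikbkb-deleted replicate 1 and Ikbkb floxed replicate 3. Tubb2b there had r = 0.832 (adjusted exact permutation p = 0.0952), and 0.777 without them. With cell cycle genes, Tuba1b in the Ikbkb set had r = 0.913 (adjusted exact permutation p = 0.0610), and 0.930 without the 2 farthest libraries. Tubb6 in the Irf1 set had r = 0.914 (adjusted exact permutation p = 0.0685), and 0.637 without the 2 farthest.

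The genes whose levels ran most closely with each tubulin gene were found over the 16 libraries after subtracting the mean of each set, among 9602 genes. They are given as a description, since all genes of a library share its depth and its mixture of cells. Tubb5 was nearest to the ubiquitin-conjugating enzyme gene Ube2l3 (r = 0.948) and the replication helicase gene Mcm5 (r = 0.947). Tubb6 was nearest to Chtf8 (r = 0.962), of a complex that loads the replication clamp, and Uba1 (r = 0.957), the ubiquitin-activating enzyme. Tubb4b had the chaperonin gene Tcp1 as its second nearest (r = 0.924), after Prmt7 (r = 0.930). Tubb2a was nearest to Actb, the beta-actin gene (r = 0.925), and Wdr1, an actin-disassembly factor (r = 0.923). Tuba1a was nearest to the glycolysis gene Pgk1 (r = 0.889) and the thymidine kinase gene Tk1 (r = 0.873), Tuba1c to Rraga (r = 0.945) and Tubb3 to Pdlim1 (r = 0.891). Among the tubulin genes themselves, Tubb5 and Tubb6 were the closest pair (r = 0.890), followed by Tuba1b and Tubb4b (r = 0.802) and Tubb3 and Tubb5 (r = 0.794). Tuba1c and Tubb2b were the farthest apart (r = -0.529).

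Promoter windows were read for 8 of the genes from RefSeq on GRCm38.p6, as the 250 bases before the RefSeq start of the gene. GENCODE places some starts farther upstream. The windows of Tuba1c, Tubb2a and Tubb4b lay wholly outside the GENCODE gene, whereas 250 bases of that of Tuba4a, 202 of Tuba1a, 175 of Tuba1b, 129 of Tubb3 and 5 of Tubb5 lay inside it. The window of Tubb4b, the beta gene that differed with the alpha genes, is shown because it held the most CCAAT boxes, a motif of many genes active in dividing cells. It lies at chr2:25224703-25224952 on the minus strand, and CCAAT, or ATTGG on the other strand, is in capitals.
Tubb4b: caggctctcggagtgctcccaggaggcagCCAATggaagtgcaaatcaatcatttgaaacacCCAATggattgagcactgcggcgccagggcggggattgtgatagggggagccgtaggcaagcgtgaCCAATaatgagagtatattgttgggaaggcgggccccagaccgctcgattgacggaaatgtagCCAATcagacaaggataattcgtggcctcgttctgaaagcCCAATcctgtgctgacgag
Of the 8 windows, 5 held CCAAT or ATTGG (Tuba1a, Tuba1c, Tubb3, Tubb4b and Tubb5), as did 33.8% of 32851 promoters of the same length. Tubb4b held 5 matches and Tubb5 2. The GC box GGGCGG, or CCGCCC, was in 6 of 8, against 32.7% of all. The core of the interferon-stimulated response element, to which IRF1 binds, was searched on both strands as GAAA, any 2 bases and GAAA, and was in 0 of 8, against 2.98% of all. A kappaB core, searched on both strands as GGGA, any 4 bases and CC, was in 4 of 8 (Tuba1a, Tuba1b, Tuba4a and Tubb2a), against 17.6% of all, and in Tubb2a a GC box overlapped it. TATAAA or TTTATA was in 1 of 8, Tubb2a, against 12.4% of all. Matches describe the letters in these windows only.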

How the data were processed

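Polyadenylated RNA was measured in 16 libraries made with SMART-Seq v4 from 1000 pg of total RNA and 12 cycles of cDNA amplification, per the labels' protocols. The deposited values are raw counts of reads per gene, one column per library. The submitters' processing notes name bcl2fastq 2.17.1.14, cutadapt 1.10, STAR 2.5.3a, HTSeq 0.6.1p1 and mm10. Which annotation release and strand setting were used is not given in the sources used here. Amplified reads carried no molecular identifiers, so counts include PCR copies.

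Of 32697 gene IDs, 32684 were matched to a symbol. Counts were filtered with filterByExpr, which left 16040 genes, scaled by TMM and tested with the quasi-likelihood test of edgeR 4.0.16 (R 4.3.3), with 4 group means and Benjamini-Hochberg adjustment over all genes tested. "Called" means an adjusted p under 0.05. The comparison of sets took the mean of both groups of each set. Levels between genes used exon length from GENCODE M21. DESeq2 1.42.0 and limma 3.58.1 (voom) served as alternatives. Permutation correlations used scipy 1.17.1 and figures matplotlib 3.10.9. The fit was tested on simulated data.

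The tubulin genes and the lists of other genes were chosen with earlier results of these data known. All 10 tubulin genes are named, with every library for those called in a comparison, without overlap between groups or highest in their family. From other lists up to 4 called genes with the smallest p were named, or the 2 most abundant where none was called. Libraries were grouped by genotype label. Replicate numbers follow accession order and pair nothing.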

Additional observations from a re-analysis of the deposited data

Results flagged for a closer look

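Each tubulin gene was examined in each group of 4 libraries for a highest or lowest library far from the rest, 40 groups in all, where chance alone marks about 1 in 20. The gap to the nearest library, as a share of the group's range, exceeded Dixon's critical value in 5 groups. In the libraries labelled Irf1-deleted, replicate 4 was far above the others for Tubb3, at 73.4 CPM, and for Tubb4b, at 347 CPM. In the Irf1 floxed libraries, replicate 4 was far below the others for Tubb6, at 301 CPM, and replicate 3 for Tubb2b, at 2.97 CPM. In the Ikbkb-deleted libraries, replicate 3 was far above the others for Tuba1c, at 423 CPM.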

How the results depend on the processing

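Between sets, Tuba1a, Tuba1b and Tuba1c were called lower in all 28 settings, Tubb4b in 27 and Tuba4a in 26. Between floxed groups alone 2018 genes were called, and between deleted groups alone 1376 genes and 3 tubulin genes, against 4488 and 5 over both. Leaving out single libraries gave 3506 to 4809 genes and 5 tubulin genes each time. The median of all genes was 0.11 with limma voom and 0.01 with edgeR. For the deletions edgeR called 0 genes, and DESeq2 called 6 for Irf1, 38 for Ikbkb and 12 for their difference. Leaving out single libraries gave 0 to 1 genes for Ikbkb and 0 to 1 for the difference. Relations with marker sums numbered 3, 5 with upper-quartile scaling, and 0 to 7 without single libraries. The cause of these differences was not tested. Of the tubulin fold changes, Tubb3 moved beyond its spread between floxed groups (-0.82) and between deleted groups (0.66), as did Tubb3, Tubb5 and Tubb6 for Irf1 without both replicates 4. Transcript-length offsets and both settings that leave out 2 libraries were chosen after seeing the data. No paired analysis was possible because replicate numbers follow accession order. Tubb2b had 71 to 278 counts a library and Tubb3 94 to 1817, so depth limits them most.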
